A study of Mus musculus and Rattus norvegicus with 85 samples.

Results

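Nqo1, Cbr1, Cbr3 and Akr1b8 encode reductases that use NADPH or NADH to reduce carbonyl groups of quinones, aldehydes and ketones. They were chosen by symbol: every probe set annotated to 1 of these 4 symbols on the mouse and the rat array was taken. Each gene had 1 probe set per species, and all 4 were among the 13796 genes tested in the mouse and the 11010 tested in the rat. The probe sets were 1423627_at (Nqo1), 1460196_at (Cbr1), 1427912_at (Cbr3) and 1448894_at (Akr1b8) in the mouse. In the rat they were 1387599_a_at (Nqo1), 1368037_at (Cbr1), 1373085_at (Cbr3) and 1370902_at (Akr1b8). All 8 lay above the filter on low signal on every array of their species.

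The arrays measured RNA of the right lung of female B6C3F1/Crl mice and female F344/NCrl rats (the strain field of the labels spells the latter F334/NCrl). The animals were 10 weeks old at the start and breathed chloroprene vapour in air with the whole body exposed, 6 hours a day on 5 days a week. The mouse groups were 0, 0.3, 2, 13 and 90 ppm after 5 days and 0.3, 2, 13 and 90 ppm after 15 exposure days, when the animals were killed on day 19. The rat groups were 5, 30, 90 and 200 ppm at each of these times. Each of the 17 groups held 5 animals with 1 array each, 45 mice and 40 rats in all, and each animal has a number of its own in the labels. A mouse group at 0 ppm after 15 days and rat groups at 0 ppm were not analysed here, so those animals were compared with the lowest concentration given, and nothing is known of a change that this concentration itself had made.

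NQO1 reduces quinones straight to hydroquinones without releasing a semiquinone radical. CBR1 and CBR3 are monomeric short-chain carbonyl reductases encoded side by side on mouse chromosome 16, and AKR1B8 is an aldo-keto reductase of the aldose reductase family that reduces aldehydes. Nqo1 is a textbook target of NRF2, a transcription factor that KEAP1 holds back in unstressed cells and that binds antioxidant response elements once electrophiles modify KEAP1. Chloroprene is a chlorinated diene that cytochrome P450 enzymes of the lung and liver oxidise to reactive epoxides.

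The values are deposited log2 signals per probe set. Levels are compared only within a probe set and never between genes or species. A change is the difference of mean log2 signals of groups of 5 animals, given ± its standard error from a limma fit of the whole species, and "rose" or "fell" is used where the Benjamini-Hochberg adjusted p over all genes of the comparison was under 0.05. The precision is limited by the number of arrays. Most genes on a list of lung epithelium had a high signal, which fits the lung label. Sftpc, Sftpa1, Scgb1a1 and Sftpb averaged between 14.04 and 15.26 in the 2 species, and Sftpd and Ager between 13.54 and 15.01. Aqp5 averaged 12.98 in the mouse and 11.88 in the rat. Nkx2-1 was middling in the mouse, with a mean of 8.21 at the 63.03rd percentile of all probe sets. In the rat it stood at the 96.91st percentile. In the 15-day groups, 9 mice have a duration field that conflicts with their title, which was followed. Further, 6 mice carry a letter after their number, and 3 rats (239, 269 and 282) have a title in another form that does not name the tissue. Among the exposed mice after 5 days, the titles of 118, 121, 136, 154 and 167 write the exposure code without the hyphen that the rest of their groups have. What the hyphen stands for is not given, and these mice were not left out together. The highest correlation between 2 arrays was 0.998.

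To place the genes, the 250 bases before each start site were read from RefSeq's mouse promoter table (GRCm38.p6), which held all 4. Those of Nqo1 and Cbr3 are shown because these genes rose most in the mouse. Nqo1 lies on the minus strand and the stretch is chr8:107403206-107403455. That of Cbr3 is chr16:93682969-93683218 on the plus strand. Capitals mark GC boxes (GGGCGG, either strand) and a TATA box (TATAAA, either strand).
Nqo1: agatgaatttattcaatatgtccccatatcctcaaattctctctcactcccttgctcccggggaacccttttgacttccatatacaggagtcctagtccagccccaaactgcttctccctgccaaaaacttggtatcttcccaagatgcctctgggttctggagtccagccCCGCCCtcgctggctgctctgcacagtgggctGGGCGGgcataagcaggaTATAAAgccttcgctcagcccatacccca
Cbr3: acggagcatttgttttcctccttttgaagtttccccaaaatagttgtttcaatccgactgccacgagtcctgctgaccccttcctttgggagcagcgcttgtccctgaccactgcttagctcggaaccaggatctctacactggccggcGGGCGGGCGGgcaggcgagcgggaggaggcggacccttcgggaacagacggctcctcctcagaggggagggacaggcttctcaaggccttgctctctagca
The core of the antioxidant response element, TGACNNNGC on either strand, was in none of the 4 stretches, and so the form with TCA in place of NNN was not either. Of all 32851 mouse promoters in the table, 10.2% held the core and 0.390% the fixed form in the same 250 bases. The absence says only that these letters are not in this window. Nqo1, Cbr3 and Akr1b8 each held 2 GC boxes and Cbr1 none (chr16:93607587-93607836, plus strand), against 32.7% of all promoters with at least 1. A TATA box stood 29 bases before the start of Nqo1 and, on the other strand, 159 bases before that of Akr1b8 (chr6:34353896-34354145, plus strand), and 12.4% of all promoters held one.

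All 4 genes rose in the mouse lung at 90 ppm after 5 days, and Nqo1 and Cbr3 rose most. Against 0 ppm, Cbr3 rose 5.24-fold, Nqo1 4.49-fold, Cbr1 1.95-fold and Akr1b8 1.94-fold. In that comparison 16.3% of the 13796 genes passed, and 8.99% rose. For each of the 4 genes all 5 mice at 90 ppm lay above all 5 at 0 ppm, as they did for 7.99% of all genes. Cbr3 had the smallest p of all 13796 genes, and did so in 8 of the 14 mouse comparisons between concentrations.

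The Nqo1 signal at 0 ppm was 7.22, 7.42, 7.52, 7.61 and 7.71 in the 5 mice, and at 0.3 ppm it was 7.34, 7.42, 7.46, 7.47 and 7.77. These groups overlapped throughout. At 2 ppm the 5 values were 8.27, 8.41, 8.44, 8.48 and 8.64. At 13 ppm they were 8.79, 8.86, 9.22, 9.32 and 9.38, and at 90 ppm 9.54, 9.58, 9.61, 9.70 and 9.88. From 2 ppm on, the 5 animals of each group lay above every animal of the group before, as they did for 0.863% of all genes from 0.3 to 2 ppm, 0.159% from 2 to 13 ppm and 3.18% from 13 to 90 ppm. Against 0 ppm the change was 0.95 ± 0.13 (adjusted p = 2.1e-05) at 2 ppm, 1.62 ± 0.13 (adjusted p = 1.3e-11) at 13 ppm and 2.17 ± 0.13 (adjusted p = 4.0e-16) at 90 ppm.

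Cbr3 followed a like course. The values were 9.82, 9.94, 9.99, 10.19 and 10.25 at 0 ppm and 10.13, 10.14, 10.15, 10.16 and 10.39 at 0.3 ppm. They were 10.92, 11.07, 11.07, 11.12 and 11.25 at 2 ppm, 11.59, 11.73, 11.73, 11.85 and 11.97 at 13 ppm and 12.08, 12.28, 12.55, 12.56 and 12.68 at 90 ppm. As for Nqo1, no animal at 2 ppm or more overlapped the group below. Cbr3 rose by 1.05 ± 0.12 (adjusted p = 6.3e-07) at 2 ppm, 1.73 ± 0.12 (adjusted p = 2.8e-13) at 13 ppm and 2.39 ± 0.12 (adjusted p = 3.5e-18) at 90 ppm.

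Cbr1, the paralogue next to Cbr3, rose later along the concentrations. Its signal was 10.44, 10.51, 10.58, 10.61 and 10.66 at 0 ppm, 10.52, 10.53, 10.60, 10.60 and 10.62 at 0.3 ppm and 10.60, 10.67, 10.72, 10.85 and 10.87 at 2 ppm. The 2 ppm animals overlapped both lower groups, and the change against 0 ppm was 0.18 ± 0.07 (adjusted p = 0.22) with a 95% interval of 0.04 to 0.33. At 13 ppm the values were 10.95, 11.00, 11.05, 11.08 and 11.29 and at 90 ppm 11.40, 11.54, 11.54, 11.55 and 11.58, both clear of 0 ppm (at 13 ppm this held for 2.86% of all genes). The rise was 0.51 ± 0.07 (adjusted p = 5.7e-06) at 13 ppm and 0.96 ± 0.07 (adjusted p = 1.5e-13) at 90 ppm.

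Akr1b8, the aldo-keto reductase, rose at 2 ppm, and no later single step after 5 days passed. It measured 9.95, 10.10, 10.18, 10.19 and 10.37 at 0 ppm, 10.05, 10.15, 10.19, 10.23 and 10.33 at 0.3 ppm and 10.55, 10.61, 10.63, 10.82 and 10.98 at 2 ppm. The 2 ppm animals were all above the 0 ppm animals, as for 3.66% of all genes, and the rise was 0.56 ± 0.12 (adjusted p = 0.0082). That call was lost without mouse 136 (0.49, adjusted p = 0.055). At 13 ppm the values were 10.63, 10.74, 10.86, 11.32 and 11.33 and at 90 ppm 10.87, 11.08, 11.19, 11.19 and 11.25, and these groups overlapped. Akr1b8 rose by 0.82 ± 0.12 (adjusted p = 9.4e-06) at 13 ppm and 0.96 ± 0.12 (adjusted p = 6.5e-08) at 90 ppm against 0 ppm.

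**Figure D1:**
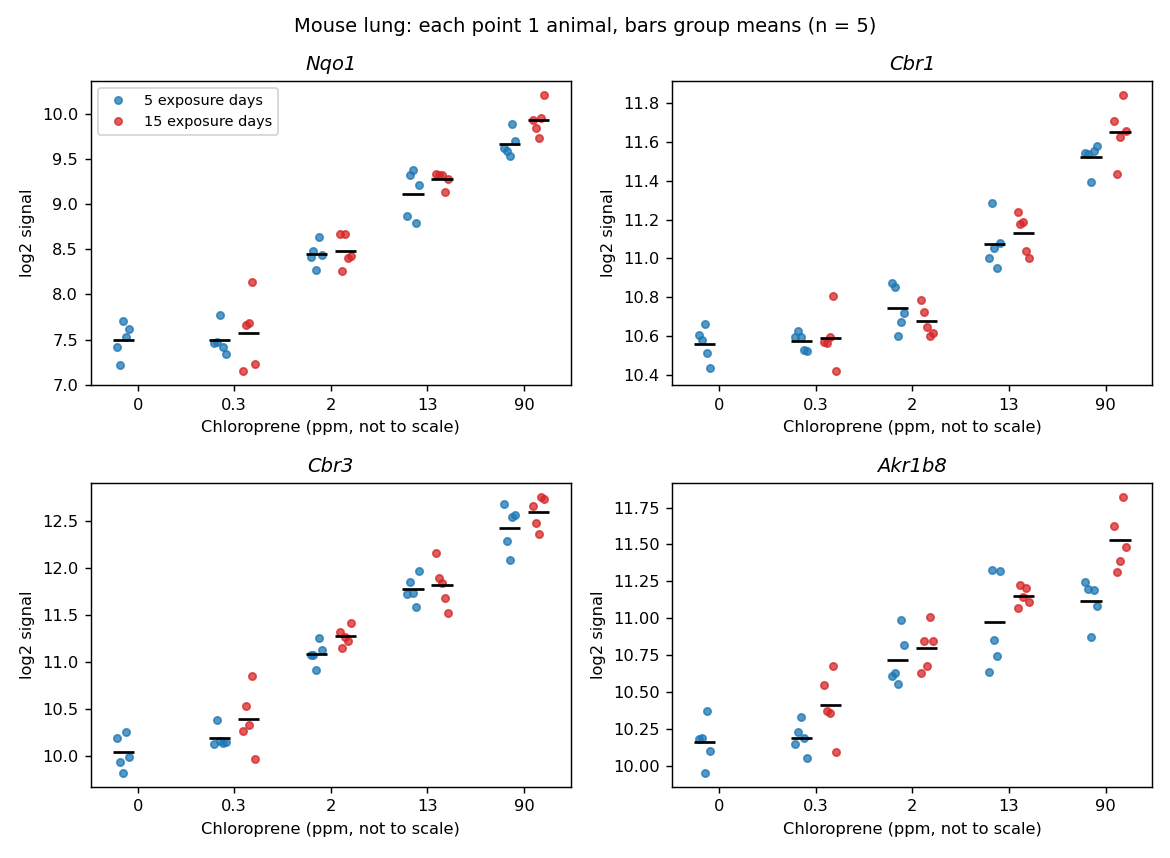
Log2 signal of the 4 genes in each mouse against chloroprene concentration (ppm, evenly spaced, not to scale), blue after 5 and red after 15 exposure days; points are animals and black bars group means (n = 5). Nqo1 went from a mean of 7.50 at 0 ppm to 9.66 at 90 ppm after 5 days and Cbr3 from 10.04 to 12.43, while the 0 and 0.3 ppm animals overlap.

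At 13 against 0 ppm all 4 genes rose, as did 1.17% of all genes, and at 2 against 0 ppm 3 of the 4 rose, as did 1.07% of all genes. These shares depended on single mice: at 2 ppm 166 genes passed in either direction and 34 without mouse 136, and at 13 ppm 179 and 81 without mouse 151 or 363 without mouse 149. At 0.3 against 0 ppm none of the 4 passed limma's test, none had an unadjusted p under 0.05 (as 3.73% of all genes had), and 0% of all genes passed. Against 0.3 ppm after 5 days all 4 rose at 13 ppm, as did 0.341% of all genes, and at 90 ppm, as did 5.23%. The 95% intervals of the change from 0 to 0.3 ppm were -0.27 to 0.26 for Nqo1, -0.13 to 0.16 for Cbr1, -0.09 to 0.40 for Cbr3 and -0.20 to 0.26 for Akr1b8. In whole lung, more RNA per cell and more cells of a type cannot be told apart.

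The steps between neighbouring concentrations showed where each gene climbed. From 0.3 to 2 ppm Nqo1 rose by 0.95 ± 0.13 (adjusted p = 4.6e-05) and Cbr3 by 0.89 ± 0.12 (adjusted p = 4.6e-05), where 0.0797% of all genes rose. Akr1b8 changed by 0.53 ± 0.12 (adjusted p = 0.051) and Cbr1 by 0.17 ± 0.07 (adjusted p = 0.94) there. From 2 to 13 ppm Cbr3 rose by 0.68 ± 0.12 (adjusted p = 0.018) and Nqo1 by 0.67 ± 0.13 (adjusted p = 0.038). They were among the 3 genes that rose in this step (0.0217%). The Nqo1 call was lost without mouse 133, 134, 135, 137, 151, 152 or 154 and the Cbr3 call without mouse 133, 135, 151, 152 or 154, at an adjusted p of up to 0.31 for Nqo1 (without mouse 151) and 0.15 for Cbr3 (without mouse 154). From 13 to 90 ppm Cbr3 rose by 0.66 ± 0.12 (adjusted p = 4.1e-04), Nqo1 by 0.55 ± 0.13 (adjusted p = 0.0074) and Cbr1 by 0.45 ± 0.07 (adjusted p = 4.9e-05), where 2.48% of all genes rose. Akr1b8 changed by 0.26 ± 0.12 (adjusted p = 1) from 2 to 13 ppm, with a 95% interval of 0.02 to 0.49. From 13 to 90 ppm Akr1b8 changed by 0.14 ± 0.12 (adjusted p = 0.54), with a 95% interval of -0.09 to 0.37.

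After 15 exposure days the same 4 genes rose again, now against 0.3 ppm. At 90 ppm Nqo1 rose 5.12-fold, Cbr3 4.61-fold, Akr1b8 2.17-fold and Cbr1 2.09-fold, where 4.68% of all genes rose. The Nqo1 signal was 7.15, 7.23, 7.66, 7.69 and 8.14 at 0.3 ppm, 8.26, 8.40, 8.42, 8.67 and 8.67 at 2 ppm, 9.14, 9.28, 9.32, 9.32 and 9.33 at 13 ppm and 9.73, 9.84, 9.93, 9.95 and 10.21 at 90 ppm. Each group lay wholly above the one before, as for 0.159% of all genes from 0.3 to 2 ppm, 0.573% from 2 to 13 ppm and 3.31% from 13 to 90 ppm, and 2.27% of all genes had all mice at 90 ppm above all at 0.3 ppm. The changes of Nqo1 against 0.3 ppm were 0.91 ± 0.13 (adjusted p = 1.4e-04) at 2 ppm, 1.70 ± 0.13 (adjusted p = 7.2e-12) at 13 ppm and 2.36 ± 0.13 (adjusted p = 5.1e-17) at 90 ppm.

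Cbr3 measured 9.97, 10.27, 10.33, 10.53 and 10.86 at 0.3 ppm, 11.15, 11.22, 11.27, 11.32 and 11.42 at 2 ppm, 11.53, 11.68, 11.84, 11.89 and 12.16 at 13 ppm and 12.36, 12.48, 12.66, 12.73 and 12.76 at 90 ppm, again without overlap between neighbours. Its changes were 0.88 ± 0.12 (adjusted p = 8.9e-05), 1.43 ± 0.12 (adjusted p = 5.0e-11) and 2.21 ± 0.12 (adjusted p = 5.1e-17). At 2 ppm, Nqo1 and Cbr3 were among the 15 genes that rose (0.109%). Mouse 128 was the highest of the 0.3 ppm group for all 4 genes, with 8.14 for Nqo1, and is 1 of the mice with conflicting durations.

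Cbr1 measured 10.42, 10.56, 10.57, 10.59 and 10.80 at 0.3 ppm and 10.60, 10.61, 10.64, 10.72 and 10.79 at 2 ppm, which overlapped, and changed by 0.09 ± 0.07 (adjusted p = 1). It measured 11.00, 11.04, 11.17, 11.19 and 11.24 at 13 ppm and 11.43, 11.63, 11.66, 11.71 and 11.84 at 90 ppm, rises of 0.54 ± 0.07 (adjusted p = 2.8e-06) and 1.06 ± 0.07 (adjusted p = 1.0e-14). Cbr1 passed from 13 ppm on at both times. Akr1b8 measured 10.09, 10.36, 10.37, 10.55 and 10.68 at 0.3 ppm and 10.63, 10.68, 10.84, 10.85 and 11.01 at 2 ppm, a change of 0.39 ± 0.12 (adjusted p = 0.65) with a 95% interval of 0.16 to 0.62. It measured 11.07, 11.11, 11.14, 11.20 and 11.22 at 13 ppm and 11.31, 11.39, 11.48, 11.63 and 11.82 at 90 ppm, rises of 0.74 ± 0.12 (adjusted p = 8.4e-05) and 1.12 ± 0.12 (adjusted p = 2.5e-09). At 13 against 0.3 ppm all 4 genes rose, as did 0.319% of all genes.

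From 2 to 13 ppm after 15 days Nqo1 rose by 0.79 ± 0.13 (adjusted p = 0.0017), Cbr1 by 0.45 ± 0.07 (adjusted p = 8.5e-04) and Cbr3 by 0.55 ± 0.12 (adjusted p = 0.048), where 0.109% of all genes rose. Akr1b8 changed by 0.35 ± 0.12 (adjusted p = 1), with a 95% interval of 0.12 to 0.58. The Cbr3 call of this step was lost without any 1 of the mice 141, 142, 143, 144, 145, 157, 158, 159 or 160, with an adjusted p of up to 0.46 without mouse 157, and with only the 15-day arrays fitted the calls of Nqo1, Cbr1 and Cbr3 were lost (0.79, adjusted p = 0.063 for Nqo1). From 13 to 90 ppm all 4 rose, where 4.2% of all genes did: Cbr3 by 0.78 ± 0.12, Nqo1 by 0.65 ± 0.13, Cbr1 by 0.53 ± 0.07 and Akr1b8 by 0.38 ± 0.12. The Akr1b8 step (adjusted p = 0.036) was lost without any 1 of the mice 157, 158, 159, 160, 161, 180 or 181, with an adjusted p of up to 0.12 without mouse 180.

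No gene of the 4 passed in a comparison of 15 with 5 days at one concentration in either species, over 32 values of which 6 had an unadjusted p under 0.05 in limma. Of all genes, 0%, 0.0435%, 2.28% and 0.123% passed between the times at 0.3, 2, 13 and 90 ppm in the mouse, and 0%, 7.12%, 11% and 0.127% at 5, 30, 90 and 200 ppm in the rat. These counts depended on single animals: 314 genes at 13 ppm in the mouse became 0 without mouse 158 and 1246 without mouse 149. In the rat 784 genes at 30 ppm became 174 without rat 234 and 3794 without rat 239, 1209 at 90 ppm became 0 without rat 257 and 3151 without rat 261, and 14 at 200 ppm became 0 without rat 277 and 3740 without rat 279. Without the 3 rats with titles in another form, Nqo1 at 30 ppm was 0.27 ± 0.09 (adjusted p = 0.023) and Cbr3 0.34 ± 0.13 (adjusted p = 0.034) higher after 15 than after 5 days, where 38.1% of all genes passed. The mouse comparison with the smallest p was Akr1b8 at 90 ppm, 0.41 ± 0.12 (adjusted p = 0.13), where all 5 mice after 15 days lay above all 5 after 5 days, as for 0.486% of all genes. It passed without the mice with conflicting durations (0.61, adjusted p = 0.039). That fit kept only mice 177 and 180 at 90 ppm after 15 days, whose values of 11.63 and 11.82 were the highest of the group. The change from 0.3 to 90 ppm did not pass a test of a difference between the times for any of the 4: the differences, 15 minus 5 days, were 0.18 ± 0.18 for Nqo1, 0.12 ± 0.10 for Cbr1, -0.03 ± 0.17 for Cbr3 and 0.19 ± 0.16 for Akr1b8. Animals of the times were killed on different days, so time and day cannot be told apart.

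By array signal, the mouse genes split into 2 that rose strongly and 2 that rose less. The test took the difference of 2 genes' log2 values within each array (exact permutation, two-sided, 24 tests over both species, smallest possible p 0.0079). It compares changes of signal between probe sets, and whether probe sets differ in how their signal follows the RNA was not tested in either species. At 90 against 0 ppm after 5 days Nqo1 rose by 1.20 more than Cbr1 and by 1.21 more than Akr1b8, each at an adjusted p of 0.014 (exact permutation). Cbr3 rose by 1.43 more than Akr1b8 and Cbr1 minus Cbr3 was -1.43, at the same adjusted p. The same 4 differences passed after 15 days. Nqo1 and Cbr3 did not pass as different after 5 days (exact permutation, adjusted p = 0.23) or 15 days (adjusted p = 0.16), nor did Cbr1 and Akr1b8 (0.97 and 0.41). Over the 6 steps of the mouse, 9 of 36 such tests passed, all between 1 of Nqo1 and Cbr3 and 1 of Cbr1 and Akr1b8. At 2 against 0 ppm Cbr1 minus Cbr3 was -0.86 and Cbr3 minus Akr1b8 0.49 (exact permutation, adjusted p = 0.032).

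In the rat, 2 of the 4 genes rose at 200 against 5 ppm after 5 days: Akr1b8 2.12-fold and Nqo1 1.41-fold. In that comparison 36.3% of the 11010 genes passed, but only 4.68% rose. For Akr1b8 and Nqo1 all 5 rats at 200 ppm lay above all 5 at 5 ppm, as they did for 2.19% of all genes. The median change of all genes was -0.14, and relative to it Nqo1 changed by 0.64, Akr1b8 by 1.23, Cbr1 by -0.15 and Cbr3 by 0.04. Under quantile normalization that median was -0.12.

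Akr1b8 measured 9.20, 9.37, 9.49, 9.54 and 9.61 in the 5 rats at 5 ppm, 9.60, 9.68, 9.72, 9.95 and 10.64 at 30 ppm, 9.81, 9.91, 9.96, 9.96 and 10.01 at 90 ppm and 10.36, 10.49, 10.53, 10.59 and 10.65 at 200 ppm. The rats at 90 ppm, as for 2.88% of all genes, and those at 200 ppm were all above those at 5 ppm, and 1 rat at 30 ppm, number 239, reached the level of 200 ppm. The changes were 0.48 ± 0.14 (adjusted p = 0.25) at 30 ppm, 0.49 ± 0.14 (adjusted p = 0.022) at 90 ppm and 1.08 ± 0.14 (adjusted p = 4.5e-06) at 200 ppm. At 90 ppm 4.13% of all genes rose and at 30 ppm 0%, with 2 of the 4 genes and 13.4% of all genes at an unadjusted p under 0.05 in limma. In either direction 2598 genes passed at 90 ppm, 36 without rat 217 and 5639 without rat 222. At 30 ppm 0 passed, and 281 without rat 239. The call at 90 ppm was lost without rat 217 (0.53, adjusted p = 0.073) and with the RNA integrity number in the fit (0.50, adjusted p = 0.13).

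Nqo1 measured 11.24, 11.29, 11.38, 11.48 and 11.61 at 5 ppm, 11.31, 11.49, 11.58, 11.70 and 12.13 at 30 ppm, 11.40, 11.49, 11.72, 11.76 and 11.76 at 90 ppm and 11.78, 11.81, 11.86, 12.00 and 12.04 at 200 ppm. The 200 ppm rats lay above all rats at 5 ppm and, like those of 0.627% of all genes, above all at 90 ppm. The 30 and 90 ppm groups overlapped the 5 ppm group. Its changes were 0.24 ± 0.10 (adjusted p = 0.34), 0.22 ± 0.10 (adjusted p = 0.086) and 0.50 ± 0.10 (adjusted p = 0.0012).

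Neither carbonyl reductase, Cbr1 or Cbr3, passed in the rat after 5 days. Cbr1 measured 8.97, 9.26, 9.29, 9.47 and 9.74 at 5 ppm and 8.96, 8.97, 9.07, 9.08 and 9.19 at 200 ppm, with overlap, a change of -0.29 ± 0.13 (adjusted p = 0.078) and a 95% interval of -0.56 to -0.02. Without rat 222, the lowest of the 5 ppm group for all 4 genes, Cbr1 passed as lower (-0.39, adjusted p = 0.019). Cbr3 measured 8.09, 8.17, 8.20, 8.26 and 8.62 at 5 ppm and 8.06, 8.14, 8.14, 8.22 and 8.28 at 200 ppm, a change of -0.10 ± 0.13 (adjusted p = 0.52) with an interval of -0.36 to 0.16. At 30 and 90 ppm the group means of Cbr1 were 9.20 and 9.05 and those of Cbr3 8.18 and 8.12. From 30 to 90 ppm none of the 4 passed in limma or had an unadjusted p under 0.05, while 0.282% of all genes rose. Over all 10 rat comparisons between concentrations neither passed in limma, and an unadjusted p under 0.05 was seen 2 times for Cbr1 and 1 time for Cbr3.

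After 15 exposure days Akr1b8 and Nqo1 rose again at 200 against 5 ppm, where 0.5% of all genes rose and 0.817% passed in either direction. Akr1b8 measured 9.43, 9.50, 9.50, 9.57 and 9.73 at 5 ppm, 9.69, 9.74, 9.79, 9.85 and 10.03 at 30 ppm, 9.87, 9.94, 9.98, 10.04 and 10.18 at 90 ppm and 9.97, 10.54, 10.61, 10.75 and 10.85 at 200 ppm. The lowest value at 200 ppm, that of rat 282, lay among the 90 ppm rats, and the others stood above. The change was 1.00 ± 0.14 (adjusted p = 1.4e-04) at 200 ppm (2.00-fold), the smallest p of all 11010 genes, and 0.46 ± 0.14 (adjusted p = 0.13) at 90 ppm.

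Nqo1 measured 11.28, 11.43, 11.51, 11.52 and 11.55 at 5 ppm, 11.66, 11.77, 11.81, 11.83 and 11.90 at 30 ppm, 11.69, 11.72, 11.78, 11.99 and 12.02 at 90 ppm and 11.97, 12.06, 12.09, 12.09 and 12.32 at 200 ppm. All 5 rats of each higher group lay above all 5 rats at 5 ppm, as for 2.92% of all genes at 30 ppm, 1.93% at 90 ppm and 1.09% at 200 ppm. Nqo1 rose by 0.64 ± 0.10 (adjusted p = 8.6e-04) at 200 ppm (1.56-fold), and the changes were 0.33 ± 0.10 (adjusted p = 0.083) at 30 ppm and 0.38 ± 0.10 (adjusted p = 0.098) at 90 ppm. At these concentrations 1.14% and 0.272% of all genes rose. The call at 200 ppm was lost with the difference between 3' and 5' control probe sets in the fit (0.48, adjusted p = 0.24). That difference averaged 0.39 at 5 ppm and 0.18 at 200 ppm in these groups, and its part in the result was not tested beyond that fit.

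Cbr3 measured 8.02, 8.07, 8.20, 8.26 and 8.32 at 5 ppm and 8.30, 8.31, 8.37, 8.75 and 8.83 at 200 ppm after 15 days. The groups overlapped, with 3 of 5 rats at 200 ppm above all at 5 ppm, and the change was 0.34 ± 0.13 (adjusted p = 0.16) with an interval of 0.08 to 0.60. Cbr1 measured 9.04, 9.17, 9.21, 9.29 and 9.39 and 9.13, 9.18, 9.23, 9.59 and 9.85, a change of 0.18 ± 0.13 (adjusted p = 0.48) with an interval of -0.09 to 0.45. The change from 5 to 200 ppm differed between the times, 15 minus 5 days, by 0.47 ± 0.19 (adjusted p = 0.068) for Cbr1 and 0.44 ± 0.18 (adjusted p = 0.073) for Cbr3, where 8.81% of all genes passed as higher. At 200 ppm the change from 5 to 15 days was 0.34 ± 0.13 (adjusted p = 0.074) for Cbr1 and 0.35 ± 0.13 (adjusted p = 0.071) for Cbr3. Leaving out rat 222, 279 or 281 brought both differences between the times under 0.05, and leaving out rat 228 brought Cbr1 there. In either direction 1259 genes passed in this test, 0 without rat 277 and 4707 without rat 222. Without the 3 rats with titles in another form no gene of 11010 passed in this comparison, and the values were 0.40 ± 0.19 (adjusted p = 0.14) and 0.40 ± 0.18 (adjusted p = 0.13).

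**Figure D2:**
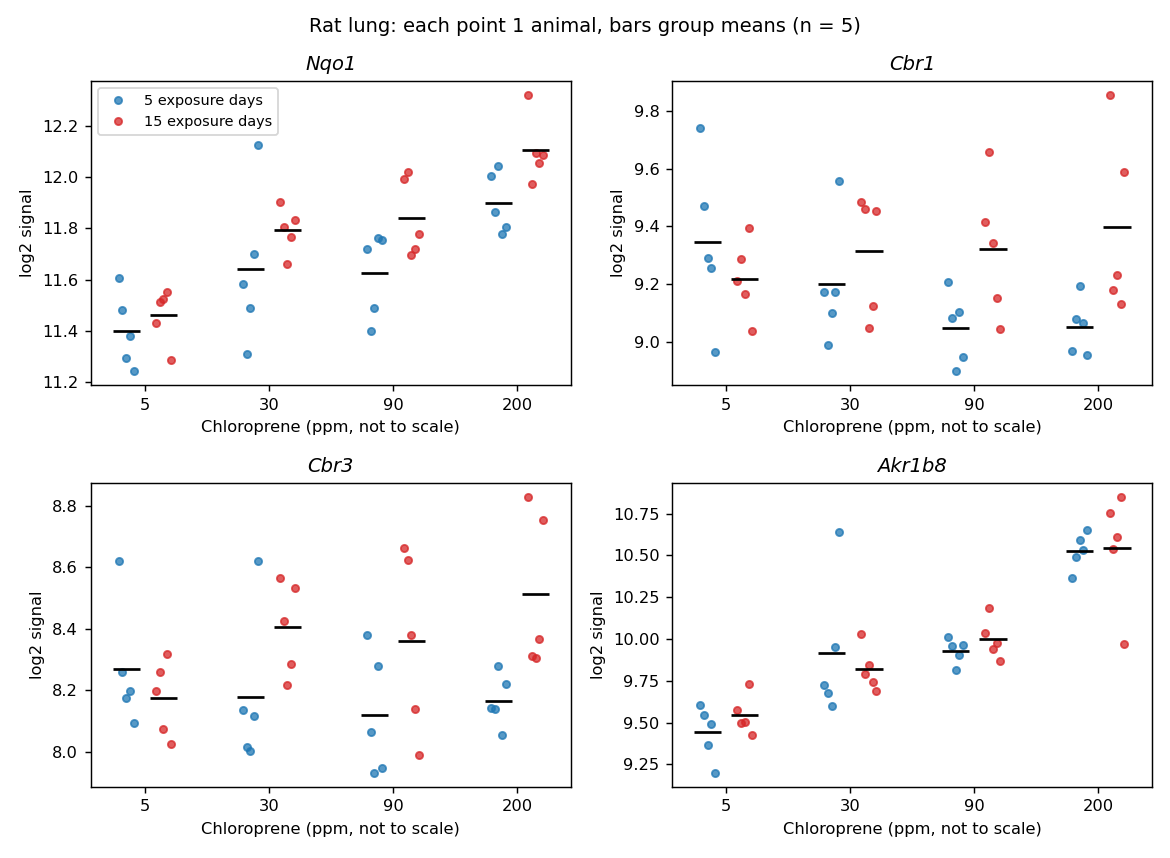
Log2 signal of the 4 genes in each rat against chloroprene concentration (ppm, evenly spaced, not to scale), blue after 5 and red after 15 exposure days; points are animals and black bars group means (n = 5). Akr1b8 went from a mean of 9.44 at 5 ppm to 10.53 at 200 ppm after 5 days and Nqo1 from 11.40 to 11.90; neither Cbr1 nor Cbr3 passed in a comparison between concentrations.

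The 3 rats with titles in another form weighed on the rat calls. Rat 239 had the highest signal of the 30 ppm group after 5 days for all 4 genes. For Akr1b8, rat 282 had the lowest signal of the 200 ppm group after 15 days and rat 269 the highest of the 200 ppm group after 5 days. Without these 3 rats, a setting chosen after seeing the data, Akr1b8 rose in every comparison with 5 ppm: by 0.30 ± 0.09 (adjusted p = 0.039), 0.49 ± 0.08 (adjusted p = 9.5e-04) and 1.05 ± 0.09 (adjusted p = 1.1e-09) after 5 days at 30, 90 and 200 ppm. After 15 days the rises were 0.27 ± 0.08 (adjusted p = 0.034), 0.46 ± 0.08 (adjusted p = 0.0048) and 1.14 ± 0.09 (adjusted p = 1.1e-10). From 90 to 200 ppm Akr1b8 then rose by 0.56 ± 0.09 (adjusted p = 0.0021) after 5 days and 0.69 ± 0.09 (adjusted p = 3.6e-05) after 15, and was the 1 gene of 11010 that passed in each of these steps (0.00908%). With all rats no gene passed in either step, and Akr1b8 changed by 0.60 ± 0.14 (adjusted p = 0.14) and 0.54 ± 0.14 (adjusted p = 1). Nqo1 without the 3 rats rose at 90 ppm after 5 days by 0.22 ± 0.09 (adjusted p = 0.042) and at 30 and 90 ppm after 15 days by 0.33 ± 0.09 (adjusted p = 0.023) and 0.38 ± 0.09 (adjusted p = 0.020). Cbr1 and Cbr3 passed in no comparison between concentrations without them. In these fits 11.3%, 43.4% and 37.2% of all genes passed in either direction after 5 days at 30, 90 and 200 ppm, and 11.4%, 2.07% and 1.79% after 15 days.

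Within the rat, the 4 genes did not move as a block. At 200 against 5 ppm after 5 days Nqo1 exceeded Cbr1 by 0.79 and Cbr3 by 0.60 (exact permutation, adjusted p = 0.014 each). Akr1b8 exceeded Nqo1, with a difference Nqo1 minus Akr1b8 of -0.59 at the same adjusted p. After 15 days Nqo1 exceeded Cbr1 by 0.47 and Cbr3 by 0.31 (exact permutation, adjusted p = 0.014 and 0.024). Nqo1 minus Akr1b8 was -0.35 and did not pass (exact permutation, adjusted p = 0.076), nor did Cbr3 minus Akr1b8 (-0.66, adjusted p = 0.060).

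**Figure D3:**
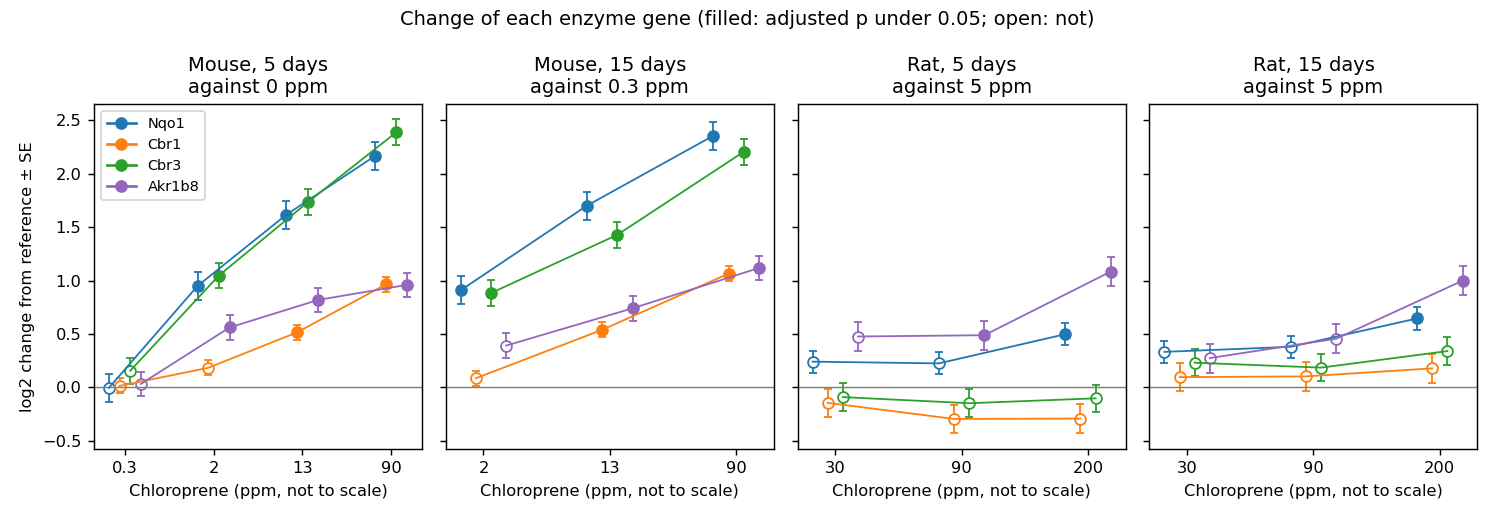
Log2 change ± standard error of each gene from the reference of its panel (0 ppm, or the lowest concentration) against concentration (ppm, evenly spaced, not to scale); filled points have an adjusted p under 0.05. Nqo1 and Cbr3 rise together in the mouse to changes above 2, while in the rat Akr1b8 and Nqo1 rise and Cbr1 and Cbr3 stay between -0.30 and 0.34.

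Mouse and rat stand side by side without a test, since the arrays, the references and most concentrations differ. At 90 ppm after 15 days the Cbr3 change was 2.21 ± 0.12 in the mouse, against 0.3 ppm, and 0.18 ± 0.13 in the rat, against 5 ppm. For Nqo1 these were 2.36 ± 0.13 and 0.38 ± 0.10, for Cbr1 1.06 ± 0.07 and 0.10 ± 0.13, and for Akr1b8 1.12 ± 0.12 and 0.46 ± 0.14.

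The genes whose pattern over the arrays was most like each member were named from the Pearson correlation, as a description over arrays that share the groups. Over the 45 mouse arrays Nqo1 was nearest to Cbr3 (r = 0.98), and outside the 4 to the thioredoxin reductase Txnrd1 (0.97), the glutathione peroxidase Gpx2 (0.96) and the peroxisomal oxidase Acox2 (0.96). Cbr3 was nearest to Acox2 (0.98), Gpx2 (0.97) and Pgd, an NADPH-forming enzyme of the pentose phosphate pathway (0.97). Cbr1 was nearest to the aldehyde dehydrogenase Aldh3a1 (0.96), the glutathione transferase Gstm1 (0.95) and Blvrb (0.95), and Akr1b8 to Ikbkg (0.95), the sulfiredoxin Srxn1 (0.95) and the glutamate-cysteine ligase subunit Gclm (0.94). At 90 against 0 ppm after 5 days Aldh3a1 rose by 3.14 ± 0.17, Gpx2 by 1.97 ± 0.12, Acox2 by 1.58 ± 0.11 and Srxn1 by 1.42 ± 0.11. Gclm rose by 1.55 ± 0.09, Txnrd1 by 1.16 ± 0.08, Pgd by 1.11 ± 0.07, Blvrb by 1.00 ± 0.09, Ikbkg by 0.77 ± 0.07 and Gstm1 by 0.54 ± 0.05. Their choice by correlation over the same arrays favours genes that change with the groups, so these rises are no separate result. With the group means subtracted, the mouse members correlated less with each other, from 0.35 for Nqo1 and Akr1b8 to 0.58 for Cbr3 and Akr1b8. Nqo1 and Cbr3 then correlated at 0.56. The nearest named genes were then Dph3 for Nqo1 (0.75), Smim8 for Cbr1 (0.72), Dpcd for Cbr3 (0.83) and Adam8 for Akr1b8 (0.81).

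Over the 40 rat arrays Nqo1 was nearest to Txnrd1 (0.89), Hap1 (0.88) and Srxn1 (0.87), and Akr1b8 to Gclc, the catalytic subunit of glutamate-cysteine ligase (0.90), Srxn1 (0.87) and Gclm (0.85). Nqo1 and Akr1b8 correlated at 0.83. Cbr1 was nearest to Tm7sf3, Manbal and Eif2b1 (0.96 each) and Cbr3 to Faf2 (0.92), Gstt1 (0.90) and Cd82 (0.90). Cbr1 and Cbr3 correlated at 0.88, and Cbr1 and Akr1b8 at 0.08. After subtraction of the group means, Nqo1 correlated at 0.75 with Cbr3, 0.72 with Cbr1 and 0.62 with Akr1b8. Akr1b8 then correlated at 0.41 with Cbr1 and 0.43 with Cbr3, and Cbr1 with Cbr3 at 0.90. With the group means subtracted, 2560 genes, 23.3% of the others, still correlated above 0.8 with Cbr1 in the rat, and 16.0% did so with Cbr3. For Nqo1 this was 0.164% and for Akr1b8 0%, and in the mouse at most 0.0580% for any of the 4. Rat Cbr1 and Cbr3 varied with a wide set of genes between rats of the same group.

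Other reductases were counted beside the shares of all genes. In the mouse 8.99% of all genes rose at 90 against 0 ppm after 5 days and 4.68% at 90 against 0.3 ppm after 15 days. Of 20 other carbonyl and aldo-keto reductases measured, 2 rose after 5 days, about the share of all genes, and none fell, with a median change of 0.08 beside 0.01 over all genes. Akr1c14, a hydroxysteroid dehydrogenase, rose by 1.41 ± 0.32 and Dcxr, a xylulose reductase, by 0.43 ± 0.09. After 15 days 3 of 20 rose: Akr1c14 by 1.28 ± 0.32, Akr1c19 by 0.44 ± 0.13 and Hsd11b1, which regenerates active glucocorticoid, by 0.22 ± 0.06. Of 10 other quinone and enone reductases 2 rose at each time, Blvrb (flavin and biliverdin reduction) by 1.00 ± 0.09 and 0.81 ± 0.09 and Ptgr1 (enone reduction) by 0.33 ± 0.07 and 0.45 ± 0.07, and the median changes were -0.02 and -0.02. Nqo2, the paralogue of Nqo1, changed by -0.18 ± 0.11 after 5 days and did not pass.

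In the rat at 200 against 5 ppm after 5 days, 6 of 18 other carbonyl and aldo-keto reductases fell and 2 rose, with a median change of -0.15 beside -0.14 over all genes. Of all genes 31.6% fell and 4.68% rose, so the falls were near the share of all genes. The falls were Akr7a2 (-0.48 ± 0.17), Dhrs7b (-0.47 ± 0.13), Akr7a3 (-0.40 ± 0.16), Dhrs11 (-0.30 ± 0.08), Dhrs1 (-0.28 ± 0.07) and Dhrs7 (-0.26 ± 0.10). Akr1d1 rose by 0.23 ± 0.08 and Hsd11b1 by 0.16 ± 0.06. Of 10 other quinone and enone reductases 5 fell and none rose, beside the same shares, with a median of -0.24: Cryz (-0.60 ± 0.16), Aifm2 (-0.47 ± 0.13), Blvrb (-0.43 ± 0.16), Nqo2 (-0.37 ± 0.10) and Cyb5r2 (-0.29 ± 0.12). After 15 days none of the 18 and none of the 10 passed in limma.

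Other genes known as NRF2 targets rose alongside. In the mouse 20 of 23 rose after 5 days, with a median of 0.70, and 21 of 23 after 15 days, with a median of 0.97, beside 8.99% and 4.68% of all genes. Gpx2 rose by 1.97 ± 0.12, Gclm by 1.55 ± 0.09 and Txnrd1 by 1.16 ± 0.08 after 5 days, and Gsta2, a glutathione transferase, by 2.11 ± 0.15 after 15. At 2 against 0 ppm 12 of 23 rose, beside 1.07% of all genes, and at 0.3 against 0 ppm none. In the rat 11 of 20 rose and Gsta4 fell (-0.29 ± 0.09) after 5 days (median 0.27), and 9 rose and none fell after 15 (median 0.43), beside 4.68% and 0.5% of all genes that rose. Gsta3 rose by 1.39 ± 0.17 and 1.03 ± 0.17 and Gclc by 0.75 ± 0.08 and 0.52 ± 0.08.

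The next counts stand beside the same shares of all genes that rose, 8.99% and 4.68% in the mouse and 4.68% and 0.5% in the rat. Of 11 regulators of the pathway 2 rose in the mouse at each time, the small Maf partner Mafg (0.57 ± 0.13 and 0.49 ± 0.13) with Keap1 after 5 days (0.37 ± 0.10) and the NRF2 competitor Bach1 after 15 (0.44 ± 0.12). In the rat Gsk3b rose after 5 days (0.36 ± 0.12) and Nfe2l1 after 15 (0.63 ± 0.14). Of 8 enzymes that supply NADPH, 5 rose and Mthfd1 fell (-0.38 ± 0.12) in the mouse after 5 days and 2 rose after 15, led by Pgd (1.11 ± 0.07 and 0.91 ± 0.07) and Idh1 (0.49 ± 0.08 and 0.51 ± 0.08). In the rat Me1 rose (0.31 ± 0.08) and Mthfd1 (-0.44 ± 0.11), Pgls (-0.35 ± 0.13) and Nadk (-0.33 ± 0.10) fell after 5 days, 3 of 8 beside 31.6% of all genes, and Pgd alone rose after 15 days (0.38 ± 0.10).

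**Figure D4:**
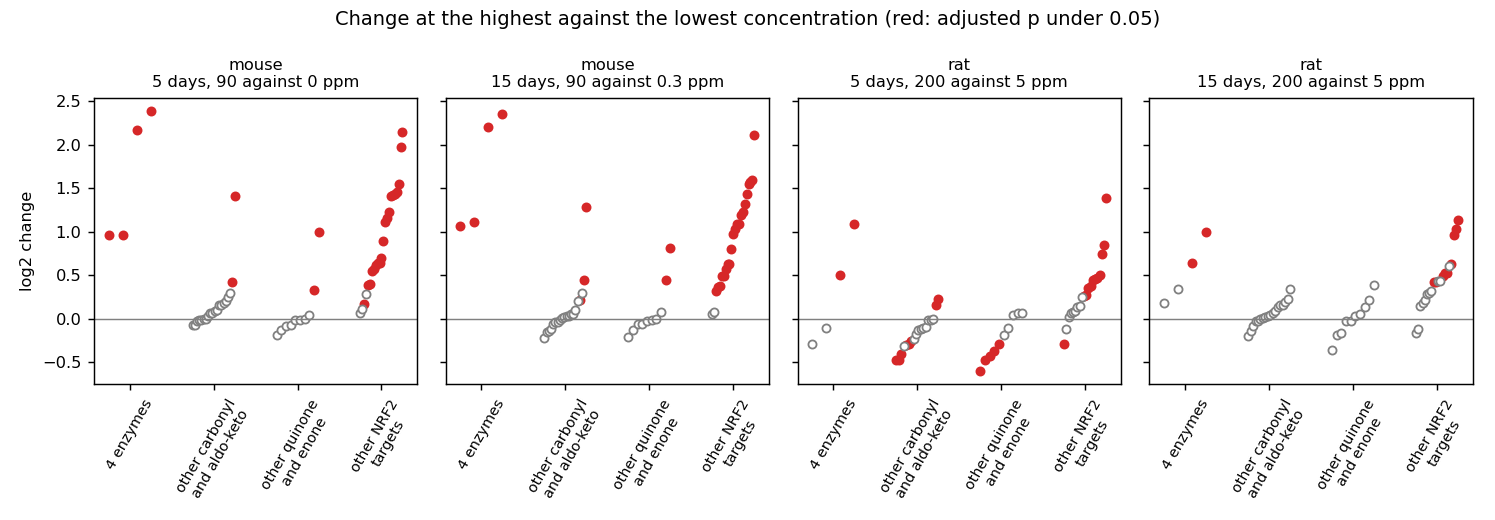
Log2 change at the highest against the lowest concentration of the 4 genes (left in each panel), other carbonyl and aldo-keto reductases, other quinone and enone reductases and other NRF2 targets; each point is 1 gene, ordered by its change, and red points have an adjusted p under 0.05. In the mouse the 4 genes and 20 or 21 of 23 NRF2 targets are red, and 2 or 3 of 20 carbonyl and aldo-keto reductases; of all genes 16.3% passed after 5 days.

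Genes near the members on the mouse chromosomes were taken from a short list. Akr1b3 and Akr1b7, also on that list, were not among the genes tested under these symbols. Setd4, next to Cbr1, rose by 0.27 ± 0.07 after 5 days (adjusted p = 0.0031) and 0.32 ± 0.07 after 15 (adjusted p = 0.0012). Akr1b10, a relative of Akr1b8 nearby, changed by -0.02 ± 0.07 and -0.04 ± 0.07 and Nob1, next to Nqo1, by 0.11 ± 0.06 and 0.07 ± 0.06, and neither passed. Nor did Nfat5 (-0.21 ± 0.24 and -0.04 ± 0.24), near Nqo1, or Dop1b (0.01 ± 0.09 and 0.00 ± 0.09), near Cbr3. Cbr1 and Cbr3, and Akr1b8 and its relatives, are paralogues, and whether their probes cross-hybridise was not tested here.

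Markers of other cells moved in the mouse, at the highest concentration and in part from 2 ppm on. At 90 against 0 ppm after 5 days 7 of 10 ciliated cell genes and 3 of 8 club cell genes rose and 8 of 10 B and T lymphocyte genes fell, beside 8.99% of all genes that rose and 7.35% that fell. The summed signal of the ciliated list ranged from 14.18 to 14.34 (log2) at 0 ppm and from 14.40 to 14.79 at 90 ppm, that of the club list from 16.80 to 16.98 and from 16.95 to 17.10, and that of the lymphocyte list from 11.92 to 12.13 and from 10.92 to 11.43. After 15 days 4 of 10, 2 of 8 and 0 of 10 passed, the first 2 as higher, beside 4.68% of all genes that rose. The sums at 0.3 and 90 ppm then overlapped in each list. They ranged from 14.11 to 14.53 and from 14.24 to 14.65 for the ciliated list and from 16.85 to 17.03 and from 16.94 to 17.13 for the club list. For the lymphocyte list the ranges were 11.42 to 12.08 and 11.08 to 11.54. At 2 against 0 ppm 2 of 10 ciliated and 0 of 8 club genes rose, beside 1.07% of all genes. The ciliated sum after 5 days ranged from 14.24 to 14.32 at 0.3 ppm, 14.42 to 14.55 at 2 ppm and 14.42 to 14.73 at 13 ppm. The lymphocyte sum ranged from 11.16 to 12.35, 11.21 to 11.78 and 11.23 to 12.09 at these concentrations. All mice at 2 ppm thus lay above the 0 ppm mice in the ciliated sum and below them in the lymphocyte sum. Dnai1 and Spag6 of the ciliated list were not measured, and the median change of the ciliated list was 0.64 after 5 and 0.37 after 15 days. The part of these cells in the 4 genes' results was not tested.

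In the rat after 5 days, 4 of 6 cardiac muscle genes rose and all 5 measured mesothelium genes and 3 of 6 alveolar macrophage genes fell at 200 against 5 ppm, beside 4.68% of all genes that rose and 31.6% that fell. The summed mesothelium signal ranged from 13.43 to 13.86 at 5 ppm and from 12.97 to 13.11 at 200 ppm, and the cardiac signal from 8.51 to 9.20 and from 8.77 to 10.95. At 90 against 5 ppm 3 of 6 cardiac genes rose and all 5 mesothelium genes fell, beside 4.13% and 19.5% of all genes, and at 30 against 5 ppm none passed. The part of these cells in the Akr1b8 and Nqo1 results was not tested. Of the club list 2 of 6 rose at 200 ppm. Ciliated genes did not pass in the rat, nor did any cell list gene after 15 days. The mean RNA integrity number after 5 days was 8.02 at 5 ppm, 9.03 at 30 ppm (4 rats), 9.22 at 90 ppm and 7.78 at 200 ppm (4 rats). With that number in the fit, Akr1b8 and Nqo1 still rose at 200 ppm at both times.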

How the data were processed

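Log2 signals per probe set, deposited by the authors, were used for 45 mouse arrays (45101 probe sets) and 40 rat arrays (31099 probe sets). Array medians lay between 7.25 and 7.37, so the values had been normalized between arrays, by a method not given in the sources used here. The columns were matched to samples by accession, and groups came from the titles. Probe sets were named through the platform annotation: 34958 had 1 symbol, 932 several and 9211 none in the mouse, and 20832, 436 and 9831 in the rat. Those above the 40th percentile of the table on at least 5 arrays were kept, and the kept probe set with the highest mean stood for a gene. Group means of all arrays of a species were fitted with limma 3.58.1 in R 4.3.3, with moderated tests and Benjamini-Hochberg adjustment over all genes in each of 34 comparisons, and comparisons of a species and time share groups. In simulated data the fit recovered 98 of 100 made log2 changes of 1 in the mouse and 95 in the rat. Of 100 changes of 0.5 it recovered 82 and 72. The noise was drawn for each gene on its own, so the simulation did not cover variation that many genes share between animals. Figures were drawn with matplotlib 3.10.9 in Python 3.11.15.

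The 4 genes and all lists were chosen with earlier results of these data known. Named were the 4 genes everywhere and the 3 genes most correlated with each over the arrays. In the mouse the nearest gene within groups was named as well. Also named were every other reductase that passed at a highest concentration and up to 3 genes by smallest p of other lists. The neighbours on the chromosome, the tests between pairs of the 4 genes and the setting without 3 rats were chosen after seeing the data. Alternatives covered the filter, quantile normalization, the probe set rule, RNA quality covariates, the arrays fitted, the variance model, doubtful animals, the reference group and each animal left out. Nothing says whether animals shared a cage or a processing day, so p-values measure the spread between these animals.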

Additional observations from a re-analysis of the deposited data

Results flagged for a closer look

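In 4 of 68 groups of 5 animals, each gene and group taken as 1, an animal at one end stood apart from the rest of its group by Dixon's criterion, and chance gives about 1 in 20. Cbr1 of mouse 167 at 90 ppm after 5 days was 11.40, below the nearest value of 11.54. Cbr3 of mouse 118 at 0.3 ppm after 5 days was 10.39, above the nearest value of 10.16. Cbr3 of rat 239 at 30 ppm after 5 days was 8.62, above the nearest value of 8.14, and this rat was the highest of its group for all 4 genes. Nqo1 of mouse 160 at 13 ppm after 15 days was 9.14, below the nearest value of 9.28.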

How the results depend on the processing

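Of the 4 genes' changes at the highest against the lowest concentration, 16 in all, none reversed. Under the alternative settings 170 values kept their side of the threshold. With the difference between 3' and 5' control probe sets as a covariate, Nqo1 in the rat after 15 days no longer passed (0.48, adjusted p = 0.24) in a fit with 3 genes called, and Cbr1 in the rat after 5 days passed as lower (-0.36, adjusted p = 0.026); the cause was not tested. With each animal left out in turn, 159 of 160 values kept their call. Cbr1 in the rat after 5 days ranged from -0.39 to -0.19 and passed only without rat 222. Of the other comparisons, 22 values lost and 20 gained a call under the alternatives, and 30 lost and 16 gained one with an animal left out, while 1194 and 1234 kept theirs. A change of sign where neither value passed counted as the same.

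Counts over all genes moved more. At 90 against 0 ppm in the mouse after 5 days 2254 genes passed, 761 once the RNA integrity number entered the fit (5 mice without one left out) and 1360 with 0.3 ppm as the reference. The mice left out included 101, 102 and 105 of the 0 ppm group, which kept 2 mice, and the part of this smaller reference in the count was not tested. After 15 days 1100 passed, 530 without the mice with conflicting durations (76.6% of them higher, against 58.7%), 501 without the lettered mice and 666 without mouse 180, and from 13 to 90 ppm 1081 passed, 550 without mouse 158 and 2255 without mouse 177. The fit without conflicting durations kept only mice 177 and 180 at 90 ppm and mice 125 and 129 at 0.3 ppm. In the rat after 5 days 3992 passed, 2468 with the RNA integrity number and 1389 without rat 217. In the rat after 15 days 90 passed, 20 with that number, 3 with the 3' to 5' covariate, 148 with the mean of a gene's probe sets, 374 with every probe set tested, 197 without the 3 rats with titles in another form, 15 without rat 225 and 275 without rat 226; at 30 against 5 ppm 183 passed and 2 without rat 225, and at 90 against 5 ppm 34 and 2 without rat 227. No paired analysis was possible because each animal number occurs in 1 group. All 8 probe sets were above the filter on every array, but that filter is low. Mouse Nqo1 averaged 7.50 at 0 ppm, where the medians of the mouse arrays lay between 7.27 and 7.37. Rat Nqo1 stood at the 97.5th percentile of mean signal. Whether the signal level limited the size of a change was not tested, and a change already present at the lowest concentration was not measured.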

Other observations

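The 4 genes differed in how much they varied between animals of one group. In the mouse the standard deviation within groups was 0.11 for Cbr1, 0.19 for Akr1b8 and Cbr3 and 0.21 for Nqo1, the 10.3rd, 67.2nd, 70.7th and 76.3rd percentile of all genes. In the rat it was 0.17 for Nqo1, 0.21 for Cbr1 and Cbr3 and 0.22 for Akr1b8. Mouse 135 (2 ppm) and mouse 167 (90 ppm), both after 5 days, were the lowest of their groups for all 4 genes. Rats 217, 228 and 241 were the highest and rats 222 and 229 the lowest of theirs for all 4.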
